A study of Mus musculus with 6 samples.

Results

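The genes described here mark the resident and alternatively activated macrophages of fat. A list of 41 gene symbols was looked up in the expression tables of cold-stimulated inguinal fat, and all 41 had a row among 17342 named genes. Of these, 3 stood under an older symbol (Adgre1 as Emr1, Chil3 as Chi3l3 and Spi1 as Sfpi1). The list was used where a gene's mean over the 6 libraries was at least 1 FPKM, a unit that counts fragments per transcript length and per library total, which left 35 members among 11086 genes that passed the same minimum. They fell into 5 perivascular members (Lyve1, Folr2, Mrc1, Cd163 and Timd4), 4 lipid-associated members (Trem2, Gpnmb, Cd9 and Spp1) and 26 general members. The minimum was set on the mean over all libraries and was not set per genotype.

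RNA-seq was done on inguinal white adipose tissue, a subcutaneous depot, of 8-week-old C57BL/6 mice, and every library came from cold-stimulated fat. WT mice (replicates 1, 2 and 3) were compared with Rarres2-/- mice (replicates 4, 5 and 6), which lack a working gene for chemerin, an attractant of macrophages and other leukocytes that adipocytes and liver cells secrete. No fat without cold was analysed here, and the sources used here do not give the sex of the mice, the temperature or length of the cold, or which part of Rarres2 was deleted. Whether the libraries of a genotype are from different mice is not in the labels, so the p-values measure the spread between libraries, which may in part be technical.

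Macrophages are a major immune cell type of lean fat. A resident population that lies along blood vessels carries the hyaluronan receptor Lyve1, the folate receptor Folr2 and the scavenger receptors Mrc1 and Cd163, and is replaced from the blood only slowly. Interleukin-4 and interleukin-13 drive alternative activation, a state with lectin receptors and secreted proteins such as Retnla, whereas macrophages that take up lipid from dying or enlarged adipocytes carry Trem2, Gpnmb, Cd9 and Spp1.

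The libraries were checked first. Rarres2 (RefSeq position chr6:48569696-48572845 on GRCm38) was at 436, 609.6 and 505 FPKM in the WT and 0.260, 6.35 and 1.41 FPKM in the Rarres2-/- libraries, high in every WT library and at most 6.35 FPKM in the Rarres2-/- libraries. Values of a genotype are given in the order of its replicates throughout, and gene positions are those of RefSeq on GRCm38. The lowest values put the sequencing depth of WT replicate 1 at about 0.486 of that of WT replicate 2, and those of Rarres2-/- and WT replicate 3 at 0.698 to 1.01. The estimate for WT replicate 1 is the least sure. Only 12.3% of its low values lay close to the estimate, against 21.7% to 25.6% for Rarres2-/- and WT replicate 3. In WT replicate 1 the small nucleolar RNA gene Snord2 held 62.1% of the summed FPKM, whereas the median of the tested genes was 9.05 to 9.37 FPKM in all 6 libraries. Blood endothelial markers summed to 316 FPKM in WT replicate 1 and 205 FPKM in Rarres2-/- replicate 4, against 50.0 to 59.3 FPKM in the other 4 libraries. Skeletal muscle markers summed to 1567 FPKM in WT replicate 1 and to 195 to 522 FPKM elsewhere. WT replicate 1 and Rarres2-/- replicate 4 thus stood apart, and results that rest on them are given with and without them.

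Across the 6 libraries most of the macrophage genes varied together, in an order that did not follow genotype. In 29 of the 35 members, WT replicates 2 and 3 lay above the other 4 libraries, an order found in 11.4% of all tested genes. In 28 of the 35, WT replicate 1 lay below all 3 Rarres2-/- libraries as well (7.07% of all tested genes), which left the Rarres2-/- libraries between the WT extremes. This order, with WT replicates 2 and 3 highest and WT replicate 1 lowest, is called the library order. WT replicate 1 was the lowest library for 29 members, against 28.9% of all tested genes. The 7 members with another order were Aif1, Cd9, Gpnmb, Mertk, Msr1, Spp1 and Stab1. In this bulk tissue, fewer macrophages and less of each RNA per macrophage cannot be told apart.

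**Figure D1:**
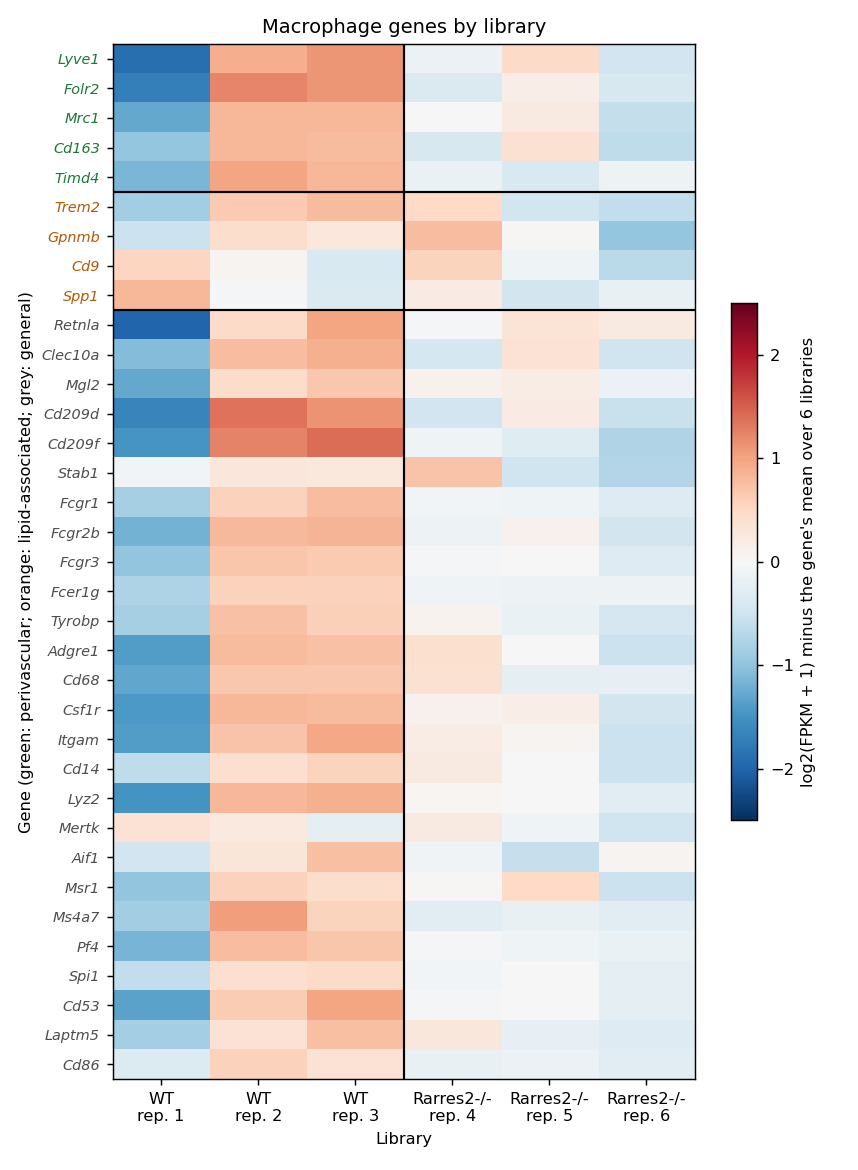
Level of each of the 35 members (rows, by role) in each library (columns), as log2(FPKM + 1) minus the gene's mean over the 6 libraries, from blue (below) to red (above). WT replicate 1 is the lowest library in 29 rows, and WT replicates 2 and 3 are high in most rows. The lipid-associated rows Cd9, Gpnmb and Spp1 depart from that order, and Trem2 has it.

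The genotypes were compared with limma on log2(FPKM + 1), a scale that understates differences of genes with low values. With all 6 libraries, 33 of the 35 members had a lower mean in Rarres2-/- (51.4% of all tested genes did) and 2, Retnla and Mgl2, a higher one. The median log2 difference, Rarres2-/- minus WT, was -0.25 over the members, beside -0.01 over all tested genes, and ran from -0.78 for Cd209f to 0.36 for Retnla. None of the 35 passed an adjusted p of 0.05 (limma with Benjamini-Hochberg adjustment, background 0%), and each had an adjusted p of 0.999. None had an unadjusted p under 0.05 in limma either, where 1.73% of all tested genes did so with a lower and 2.2% with a higher mean, and in none did the libraries of the genotypes separate. Separation was seen in 4.53% of all tested genes with Rarres2-/- lower and 5.81% with it higher. No gene of the whole table was past the threshold (0 of 11086, 436 at an unadjusted p under 0.05), and Rarres2 itself had an adjusted p of 0.0597.

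The count of lower members depended on which libraries were kept. With Rarres2-/- replicate 6 left out, 24 of 35 members were lower (median -0.13). Without WT replicate 2, 19 of 35 members were lower (median -0.02), and without WT replicate 3, 17 were (median 0.01). Without WT replicate 1, 33 of 35 were lower (49.4% of all tested genes) with a median of -0.83. In that fit of 2 against 3 libraries, 0 members passed the adjusted threshold, 27 had an unadjusted p under 0.05 and a lower level (6.48% of all tested genes), and in 29 the Rarres2-/- libraries all lay below both WT libraries (14.8%). Without both WT replicate 1 and Rarres2-/- replicate 4, a fit of 2 against 2 libraries, all 35 had a lower mean (median -0.89, 45.9% of all tested genes lower). In that fit 5 were lower past the threshold (0.487% of all tested genes): Timd4, Trem2, Cd209f, Cd68 and Pf4. The 2 libraries were singled out from these same data. WT replicate 1 was the lowest library for 29 members, so leaving it out moves their differences down in any case. The calls of that fit are therefore no independent support. When limma weighted each library by its own scatter (array weights), 14 members were lower past the threshold, beside 6.8% of all tested genes, and Retnla and Mgl2 also had a lower mean.

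**Figure D2:**
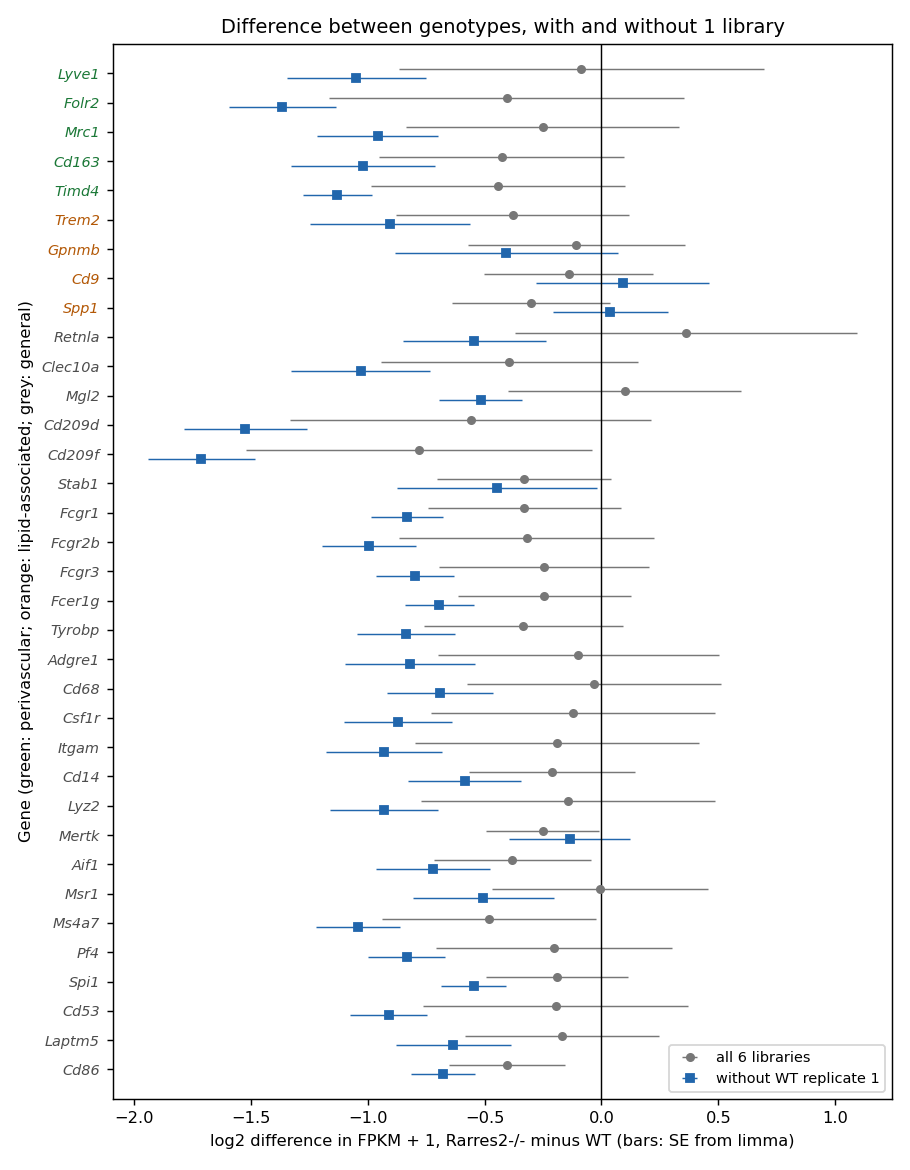
Difference of each member between genotypes (horizontal axis, log2 of FPKM + 1, Rarres2-/- minus WT) with its limma standard error as a bar, with all 6 libraries (grey circles) and without WT replicate 1 (blue squares). With all libraries the bars are wide and 33 of 35 points lie left of 0; without WT replicate 1 the median moves from -0.25 to -0.83, and Cd9 and Spp1 lie slightly right of 0.

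The perivascular members showed the library order in 5 of 5 cases. Folr2 (chr7:101839988-101857190), which encodes a folate receptor of resident macrophages, was the most abundant of them, at 21.5, 171 and 157 FPKM in the WT and 56.1, 81.7 and 54.7 FPKM in the Rarres2-/- libraries. WT replicates 2 and 3 were the highest 2 libraries and WT replicate 1 the lowest, so that the Rarres2-/- values lay inside the WT range. It averaged 117 ± 82.6 FPKM over the WT and 64.2 ± 15.2 FPKM over the Rarres2-/- libraries (SD, n = 3 each), and its log2 difference was -0.41 (SE 0.759) with all libraries and -1.36 (SE 0.230) without WT replicate 1 (limma adjusted p = 0.208). Lyve1 (chr7:110850607-110862953), the hyaluronan receptor, was at 8.15, 62.2 and 71.4 FPKM in the WT and 29.4, 46.3 and 23.3 FPKM in the Rarres2-/- libraries. Here the WT libraries differed by more than the genotypes did, and the log2 difference was -0.09 (SE 0.779) with all libraries and -1.05 (SE 0.296) without WT replicate 1 (limma adjusted p = 0.346).

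Mrc1 (chr2:14229414-14332023), the mannose receptor that clears glycoproteins, was at 11.1, 51.3 and 51.9 FPKM in the WT and 28.3, 33.6 and 18.6 FPKM in the Rarres2-/- libraries. Cd163 (chr6:124304636-124330529), the receptor for haemoglobin bound to haptoglobin, was at 12.8, 46.9 and 45.5 FPKM in the WT and 19.6, 34.1 and 16.5 FPKM in the Rarres2-/- libraries. In both, Rarres2-/- replicate 5 was the highest of its genotype and replicate 6 the lowest, and all 3 stayed under WT replicates 2 and 3. Timd4 (chr11:46810786-46844333), which binds phosphatidylserine on dying cells and marks long-lived resident macrophages, was the least abundant, at 0.882, 7.30 and 6.42 FPKM in the WT and 2.75, 2.22 and 2.83 FPKM in the Rarres2-/- libraries. Its Rarres2-/- libraries were close together (2.60 ± 0.333 FPKM, SD, n = 3), while WT replicate 1 lay below 1 FPKM. Its log2 difference was -0.44 (SE 0.544) with all libraries, -1.13 (SE 0.147) without WT replicate 1 (limma adjusted p = 0.182) and -1.16 without WT replicate 1 and Rarres2-/- replicate 4 (limma adjusted p = 0.0488). Over the 5 perivascular members the median log2 difference was -0.41 with all libraries and -1.05 without WT replicate 1; without WT replicate 2 it was 0.10.

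**Figure D3:**
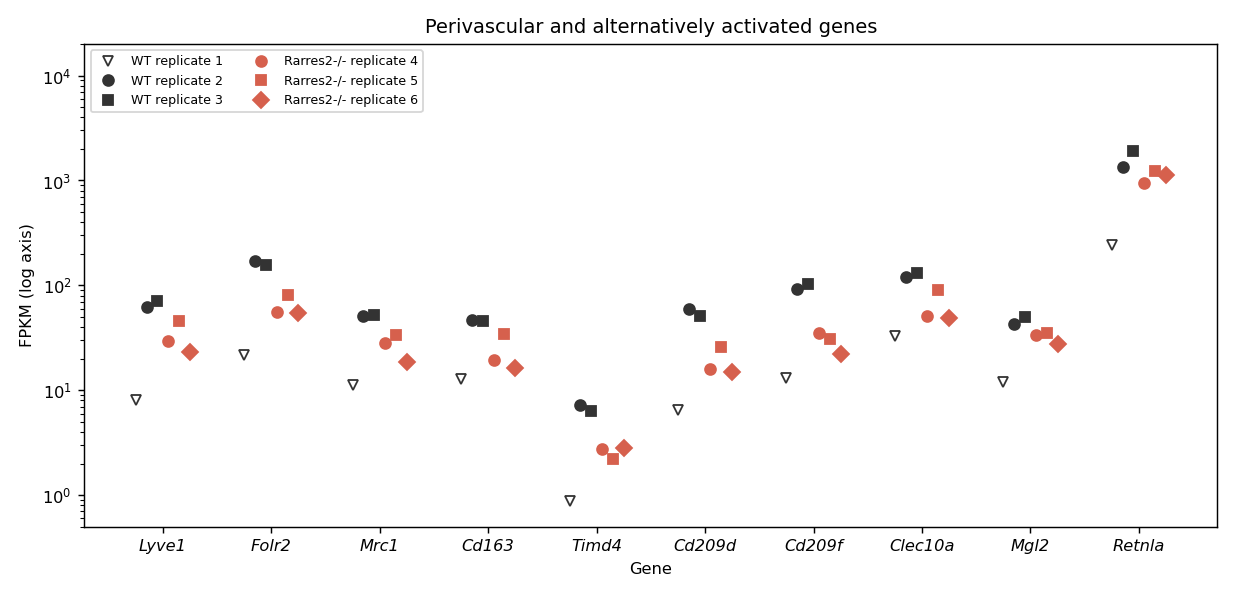
FPKM (log axis) of the 5 perivascular members and of Cd209d, Cd209f, Clec10a, Mgl2 and Retnla, 1 symbol per library (WT in black, Rarres2-/- in red). For each gene WT replicate 1 (open triangle) is the lowest point and WT replicates 2 and 3 are the highest, with the Rarres2-/- points between them.

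Lyve1 is also a gene of lymphatic endothelium, so the markers of that cell type are given beside it. The 8 lymphatic markers summed to 28.4, 73.4 and 72.4 FPKM in the WT and 58.9, 37.1 and 46.5 FPKM in the Rarres2-/- libraries, 4 of the 8 had a mean below 1 FPKM and none was at 0 in all libraries. Much of this sum came from Thy1, at 17.96 FPKM in WT replicate 1, its lowest library, and 44.42 FPKM in WT replicate 3, its highest. Prox1, the factor that sets lymphatic identity, was at 0.0524 to 0.104 FPKM. Pdpn, which fibroblasts and macrophages also express, was at 2.0, 19.7 and 19.3 FPKM in the WT and 9.67, 12.9 and 9.30 FPKM in the Rarres2-/- libraries, and the lymphatic chemokine gene Ccl21a at 0.957, 9.71 and 4.79 FPKM in the WT and 9.69, 1.86 and 6.41 FPKM in the Rarres2-/- libraries. Nrp2 was highest in Rarres2-/- replicate 4 and lowest in Rarres2-/- replicate 6. Of the 4 tested markers, Pdpn and Thy1 shared the library order of Lyve1, and Ccl21a and Nrp2 did not. That order is not particular to lymphatic markers, as all 8 progenitor and fibroblast markers had it too. The part of lymphatic endothelium in the level of Lyve1 was not tested.

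Among the alternatively activated members, 6 were above the minimum and 5 of them had the library order. Retnla (chr16:48842609-48844461), which encodes the secreted protein RELMα and is induced by interleukin-4, was the most abundant of all members, at 241, 1331 and 1892 FPKM in the WT and 942, 1223 and 1118 FPKM in the Rarres2-/- libraries. The Rarres2-/- libraries were tightly grouped inside a WT range that spanned WT replicate 1 at the bottom and replicates 2 and 3 at the top. It averaged 1154 ± 839.7 FPKM over the WT and 1094 ± 142 FPKM over the Rarres2-/- libraries (SD, n = 3 each), and the log2 difference was 0.36 (SE 0.731) with all libraries, -0.54 (SE 0.305) without WT replicate 1 and 0.94 without WT replicate 3; it passed the threshold in no fit.

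The C-type lectin gene Clec10a (chr11:70166623-70170836), a receptor for galactose-type sugars, was at 32.6, 120.1 and 131 FPKM in the WT and 51.2, 89.6 and 49.0 FPKM in the Rarres2-/- libraries. Its neighbour and close copy Mgl2 (chr11:70130125-70137542) was at 12.1, 42.4 and 50.0 FPKM in the WT and 33.4, 35.3 and 27.6 FPKM in the Rarres2-/- libraries. Mgl2 was less spread than Clec10a among the Rarres2-/- libraries, and its log2 difference was 0.10 (SE 0.497) against -0.39 (SE 0.549) with all libraries, and -0.52 (SE 0.176) against -1.03 (SE 0.296) without WT replicate 1. The 2 transcripts were 94.3% identical over 810 aligned bases with an identical run of 183 bases, so reads could be shared between them; the sources used here do not say how such reads were counted.

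Cd209d (chr8:3871824-3878548) and Cd209f (chr8:4102784-4105838), mouse relatives of the lectin DC-SIGN that lie in one cluster, had the largest differences of all members, both with all libraries and without WT replicate 1. Cd209d was at 6.53, 59.3 and 50.5 FPKM in the WT and 15.9, 26.0 and 14.9 FPKM in the Rarres2-/- libraries. Cd209f was at 13.2, 92.1 and 102 FPKM in the WT and 35.2, 31.0 and 22.2 FPKM in the Rarres2-/- libraries. In both, WT replicates 2 and 3 stood far above all others, and WT replicate 1 lay below every Rarres2-/- library. Cd209f averaged 69.2 ± 48.7 FPKM over the WT and 29.5 ± 6.67 FPKM over the Rarres2-/- libraries (SD, n = 3 each), and its log2 difference was -0.78 (SE 0.739) with all libraries (limma unadjusted p = 0.327). It was -1.71 (SE 0.228) without WT replicate 1 (limma adjusted p = 0.182) and -1.85 without Rarres2-/- replicate 4 as well (limma adjusted p = 0.0395). For Cd209d these differences were -0.56 (SE 0.771), -1.52 (SE 0.263) and -1.43, the last with a limma adjusted p of 0.0658. The transcripts of this pair were 71.2% identical over 364 aligned bases with no identical run above 9 bases.

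Stab1 (chr14:31139017-31168651), the scavenger receptor stabilin-1, departed from the rest. It was at 7.69, 10.1 and 9.96 FPKM in the WT and 14.0, 5.46 and 4.50 FPKM in the Rarres2-/- libraries, with its highest value in Rarres2-/- replicate 4 and its lowest in Rarres2-/- replicates 5 and 6. Stab1 is also a gene of sinusoidal and lymphatic endothelium, and Rarres2-/- replicate 4 was 1 of the 2 libraries with a high blood endothelial sum; the part of endothelium in the value was not tested. Its log2 difference was -0.33 (SE 0.372) with all libraries. Without Rarres2-/- replicate 4 alone it was -0.77 (limma adjusted p = 0.355), with the remaining Rarres2-/- libraries below all WT libraries, and without Rarres2-/- replicate 6 it was -0.051. It was lower past the threshold with array weights (-0.76, limma adjusted p = 0.0227), and at -0.89 without WT replicate 1 and Rarres2-/- replicate 4 (limma adjusted p = 0.0554).

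The other 3 alternatively activated members were below the minimum. The classic interleukin-4 targets Chil3 and Arg1 had means of 0.393 and 0.143 FPKM over the 6 libraries, with the highest library at 0.690 and 0.231 FPKM. Il10, the gene of an anti-inflammatory cytokine, was at 0.363, 3.0 and 1.33 FPKM in the WT and 0.302, 0.207 and 0 FPKM in the Rarres2-/- libraries. Its Rarres2-/- libraries all lay under the WT libraries, as in 712 of 17342 genes when no minimum was set. That order rests on low values, 0.302 FPKM in Rarres2-/- replicate 4 against 0.363 FPKM in WT replicate 1, the library of lowest estimated depth. No test is given for members below the minimum.

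The members grouped as Fc receptors bind antibody on the macrophage surface or are signalling chains, and 5 of 5 had the library order. Fcer1g (chr1:171229572-171234349), the common signalling chain, was at 40.0, 104 and 103 FPKM in the WT and 64.6, 63.1 and 63.0 FPKM in the Rarres2-/- libraries. Tyrobp (chr7:30413782-30417582), the adaptor DAP12 that serves Trem2, was at 57.9, 175 and 158 FPKM in the WT and 110.2, 92.4 and 77.9 FPKM in the Rarres2-/- libraries. For Fcer1g the Rarres2-/- mean was 63.6 ± 0.881 FPKM (SD, n = 3), a small spread, while the WT mean was 82.2 ± 36.5 FPKM (SD, n = 3). The activating receptor Fcgr3 (chr1:171051169-171065915) was at 17.0, 56.7 and 54.6 FPKM in the WT and 33.5, 34.4 and 27.3 FPKM in the Rarres2-/- libraries. The inhibitory receptor Fcgr2b (chr1:170960558-170976071) was at 11.5, 49.2 and 50.6 FPKM in the WT and 25.3, 29.6 and 19.7 FPKM in the Rarres2-/- libraries. The high-affinity receptor Fcgr1 (chr3:96282909-96293969) was the lowest of them, at 0.825, 3.84 and 4.55 FPKM in the WT and 2.09, 2.04 and 1.63 FPKM in the Rarres2-/- libraries. For activating and inhibitory receptors alike, WT replicates 2 and 3 were the highest libraries, WT replicate 1 was the lowest, and the Rarres2-/- values lay in between. Log2 differences of the 5 ran from -0.33 to -0.24 with all libraries and from -0.99 to -0.69 without WT replicate 1. Without that library, all 5 had an unadjusted limma p under 0.05 and a lower level (6.48% of all tested genes). None had an adjusted p under 0.05. Fcgr2b and Fcgr3 were 95.8% identical over 521 aligned bases with an identical run of 129 bases, so these 2 may share reads.

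The lineage and uptake members describe macrophages of any state. Lyz2 (chr10:117277541-117282272), the lysozyme gene of myeloid cells, was the most abundant of them, at 143, 723 and 751 FPKM in the WT and 419, 410.5 and 336 FPKM in the Rarres2-/- libraries. Csf1r (chr18:61105572-61131139), the receptor for the growth factor on which macrophages depend, was at 13.8, 70.4 and 68.2 FPKM in the WT and 42.4, 43.9 and 28.1 FPKM in the Rarres2-/- libraries. Adgre1 (chr17:57358581-57483529), which encodes the surface marker F4/80, was at 3.64, 20.1 and 19.3 FPKM in the WT and 15.1, 11.1 and 7.33 FPKM in the Rarres2-/- libraries. In these 3 genes the same 2 WT libraries were highest and WT replicate 1 was the lowest library. Without WT replicate 1 their log2 differences were -0.93 (SE 0.230), -0.87 (SE 0.231) and -0.82 (SE 0.279), against -0.14 (SE 0.630), -0.12 (SE 0.608) and -0.10 (SE 0.601) with it.

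Cd68 (chr11:69664213-69666170), a lysosomal glycoprotein, was at 8.88, 37.8 and 38.2 FPKM in the WT and 31.0, 19.8 and 20.1 FPKM in the Rarres2-/- libraries, and Pf4 (chr5:90772435-90773383), a chemokine gene of platelets and of resident macrophages, at 41.1, 158 and 152 FPKM in the WT and 90.9, 86.7 and 82.2 FPKM in the Rarres2-/- libraries. For Cd68, Rarres2-/- replicate 4 was the highest of its genotype, and for Pf4 the 3 Rarres2-/- libraries were close together. Both were among the members lower in Rarres2-/- past the threshold without WT replicate 1 and Rarres2-/- replicate 4, at -0.89 (limma adjusted p = 0.0414) and -0.87 (limma adjusted p = 0.0419); with all libraries they were at -0.03 (SE 0.543) and -0.20 (SE 0.503). Spi1 (chr2:91082374-91115759), the gene of the transcription factor PU.1 that sets macrophage identity, was at 10.5, 22.7 and 23.7 FPKM in the WT and 15.8, 16.9 and 14.2 FPKM in the Rarres2-/- libraries. Spi1 was less spread than most, with log2 differences of -0.19 (SE 0.303) with all libraries and -0.55 (SE 0.140) without WT replicate 1.

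Itgam (the integrin CD11b), Cd14 (the co-receptor for lipopolysaccharide), Ms4a7, Cd53 (a leukocyte tetraspanin), Laptm5 (a lysosomal membrane protein) and Cd86 (a co-stimulatory ligand) also had WT replicates 2 and 3 on top and WT replicate 1 lowest. Of these, Ms4a7 had the lowest difference without WT replicate 1, at -1.04 (SE 0.179, limma adjusted p = 0.208), from 5.08, 22.1 and 15.3 FPKM in the WT and 8.29, 8.80 and 8.25 FPKM in the Rarres2-/- libraries. Cd86, with the smallest unadjusted limma p of any member when all libraries were used (0.150), was at 2.40, 5.47 and 4.59 FPKM in the WT and 2.78, 2.89 and 2.62 FPKM in the Rarres2-/- libraries. Its Rarres2-/- libraries lay just above WT replicate 1 and below the other 2 WT libraries.

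In 3 lineage and uptake members the libraries were ordered otherwise. Aif1 (the actin-binding protein IBA1) was at 5.93, 10.9 and 15.4 FPKM in the WT and 8.18, 5.54 and 9.24 FPKM in the Rarres2-/- libraries, where Rarres2-/- replicate 5 and not WT replicate 1 was lowest. Msr1 (scavenger receptor A) was at 0.819, 4.40 and 3.89 FPKM in the WT and 2.71, 4.09 and 1.51 FPKM in the Rarres2-/- libraries, with Rarres2-/- replicate 5 above WT replicate 3. Mertk, a receptor tyrosine kinase for the uptake of dying cells, was at 5.91, 5.36 and 3.64 FPKM in the WT and 5.34, 4.02 and 2.80 FPKM in the Rarres2-/- libraries. Mertk had its highest value in WT replicate 1, the library in which most members were lowest, and it is a gene that other cell types of the tissue can express. The remaining lineage and uptake members were below the minimum: Cx3cr1 and Marco had means of 0.204 and 0.311 FPKM, and Itgax (the integrin CD11c) was at 1.02, 0.249 and 0.376 FPKM in the WT and 2.67, 0.385 and 0.411 FPKM in the Rarres2-/- libraries. Itgax was thus highest in Rarres2-/- replicate 4, followed by WT replicate 1.

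The lipid-associated members did not move together. Trem2 (chr17:48346401-48352276), the lipid receptor that defines this state, was at 1.88, 7.20 and 8.01 FPKM in the WT and 6.39, 2.82 and 2.42 FPKM in the Rarres2-/- libraries, with WT replicates 2 and 3 highest, Rarres2-/- replicate 4 close under them and WT replicate 1 lowest. Gpnmb (chr6:49036518-49058182), a lysosomal glycoprotein of lipid-laden macrophages, was at 3.32, 7.53 and 6.58 FPKM in the WT and 9.70, 5.46 and 2.22 FPKM in the Rarres2-/- libraries, with its highest value in Rarres2-/- replicate 4. Cd9 (chr6:125460266-125494760), a tetraspanin that many cell types express, was at 42.9, 30.7 and 22.1 FPKM in the WT and 43.7, 27.2 and 18.1 FPKM in the Rarres2-/- libraries. Spp1 (chr5:104435111-104441053), the gene of osteopontin, was at 3.37, 1.42 and 0.925 FPKM in the WT and 1.83, 0.787 and 1.15 FPKM in the Rarres2-/- libraries. Cd9 and Spp1 were highest in the 2 libraries that stood apart, WT replicate 1 and Rarres2-/- replicate 4, which is not the order of the macrophage members as a whole.

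Their log2 differences with all libraries were -0.38 (SE 0.498) for Trem2, -0.11 (SE 0.464) for Gpnmb, -0.14 (SE 0.361) for Cd9 and -0.30 (SE 0.338) for Spp1, with a median of -0.22. Without WT replicate 1 they were -0.91 (SE 0.341), -0.41 (SE 0.477), 0.09 (SE 0.369) and 0.04 (SE 0.245), with a median of -0.18. Without Rarres2-/- replicate 4 alone all 4 were lower, from -0.72 to -0.46 with a median of -0.50, and without Rarres2-/- replicate 6 the median was -0.0050. Without both WT replicate 1 and Rarres2-/- replicate 4 the median was -0.52, and Trem2 was at -1.25 (limma adjusted p = 0.0414), whereas Gpnmb was at -0.82, Cd9 at -0.22 and Spp1 at -0.14, with adjusted p-values of 0.199, 0.600 and 0.669. Cd9 and Spp1 are expressed by other cell types as well, and which cells their RNA came from was not tested.

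PU.1, the product of Spi1, binds DNA around the core GAGGAA and favours GAGGAAGT, and the members' promoters were read for both. RefSeq windows of 300 bases (250 before to 50 after the start, GRCm38.p6) were found for 26 of the 35 tested members. On either strand, GAGGAAGT stood in 4 of the 26 (15.4%), in Cd53, Pf4, Retnla and Spp1, against 3.83% of 8274 tested genes with a window. The shorter GAGGAA, which every GAGGAAGT contains, stood in 16 of the 26 (61.5%), against 31% of the same 8274 genes. A match is a run of letters and not a bound site, and binding was not measured here. The 4 promoters with the longer core are printed because they are all the matches among the members. Mrc1 is printed because it was the only perivascular member found with the shorter core, which it holds 3 times. The windows of Cd163, Folr2 and Timd4 lacked that core, and Lyve1 had no window. Capitals mark the core (GAGGAAGT, or its reverse complement ACTTCCTC; for Mrc1 GAGGAA as TTCCTC), and each sequence runs 5′ to 3′ along the gene from 200 bases before the start to 20 after. Positions are Mrc1 chr2:14229214-14229433 (plus strand), Cd53 chr3:106790130-106790349 (minus strand), Pf4 chr5:90772235-90772454 (plus strand), Spp1 chr5:104434911-104435130 (plus strand) and Retnla chr16:48842409-48842628 (plus strand).
Mrc1: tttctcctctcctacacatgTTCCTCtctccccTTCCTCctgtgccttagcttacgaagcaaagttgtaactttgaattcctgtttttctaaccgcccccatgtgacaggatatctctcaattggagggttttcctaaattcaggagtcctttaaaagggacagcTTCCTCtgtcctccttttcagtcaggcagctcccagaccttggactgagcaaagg
Cd53: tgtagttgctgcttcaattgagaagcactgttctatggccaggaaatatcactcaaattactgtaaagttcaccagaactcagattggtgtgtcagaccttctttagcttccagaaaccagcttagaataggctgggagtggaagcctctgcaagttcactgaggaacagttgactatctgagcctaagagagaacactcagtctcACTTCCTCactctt
Pf4: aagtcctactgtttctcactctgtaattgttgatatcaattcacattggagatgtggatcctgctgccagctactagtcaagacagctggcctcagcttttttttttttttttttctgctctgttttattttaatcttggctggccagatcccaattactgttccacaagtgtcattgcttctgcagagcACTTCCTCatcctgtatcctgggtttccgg
Spp1: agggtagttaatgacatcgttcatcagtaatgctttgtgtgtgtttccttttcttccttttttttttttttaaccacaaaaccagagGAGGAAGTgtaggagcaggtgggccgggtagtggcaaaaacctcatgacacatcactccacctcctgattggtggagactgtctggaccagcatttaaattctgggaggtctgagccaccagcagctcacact
Retnla: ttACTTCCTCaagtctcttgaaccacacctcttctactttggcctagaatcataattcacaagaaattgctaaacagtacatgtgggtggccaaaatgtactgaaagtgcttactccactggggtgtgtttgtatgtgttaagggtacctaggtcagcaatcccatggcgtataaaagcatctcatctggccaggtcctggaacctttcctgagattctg

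In Pf4 the core begins 10 bases before the start, in Spp1 113 and in Retnla 198 bases before it, and in Cd53 it lies just after the start. Of these 4, Cd53 and Pf4 had the library order of the general members, with Cd53 at 4.28, 19.7 and 25.2 FPKM in the WT and 11.9, 12.2 and 10.2 FPKM in the Rarres2-/- libraries, and Retnla had it by a smaller margin. Spp1, with the same 8 letters, was highest in WT replicate 1. Members with this core therefore did not share one pattern over the libraries.

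The 3 sets were then compared per library by the mean of log2(FPKM + 1) over their members. The perivascular mean was 3.20, 5.55 and 5.53 in WT replicates 1, 2 and 3 and 4.38, 4.77 and 4.15 in Rarres2-/- replicates 4, 5 and 6. General members had means of 3.67, 5.33 and 5.37 in WT and 4.70, 4.64 and 4.32 in Rarres2-/-. Lipid-associated members had means of 2.80, 3.10 and 2.89 in WT and 3.32, 2.57 and 2.21 in Rarres2-/-. The perivascular and general sets thus shared their highest 2 libraries and their lowest, and the lipid-associated set was highest in Rarres2-/- replicate 4. By genotype the perivascular mean was 4.76 ± 1.35 in WT and 4.44 ± 0.313 in Rarres2-/-, the general mean 4.79 ± 0.973 and 4.55 ± 0.204, and the lipid-associated mean 2.93 ± 0.151 and 2.70 ± 0.569 (log2 units, SD, n = 3 each). All 3 sets overlapped between genotypes.

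The perivascular mean minus the general mean was -0.47, 0.22 and 0.16 in WT and -0.32, 0.14 and -0.16 in Rarres2-/-. It was lowest in WT replicate 1 and Rarres2-/- replicate 4, in both genotypes the library with the high endothelial sum. The lipid-associated mean minus the general mean was -0.86, -2.23 and -2.48 in WT and -1.38, -2.07 and -2.11 in Rarres2-/-, so it was highest in the same 2 libraries. Against the general mean in WT, Cd9 was at 1.79, -0.34 and -0.84 and Spp1 at -1.54, -4.06 and -4.42. Gpnmb was at -1.555, -2.24 and -2.45 there, and Trem2 changed little, at -2.14, -2.29 and -2.20. Within Rarres2-/-, each of these genes was highest in replicate 4. Means by genotype were -0.03 ± 0.381 and -0.12 ± 0.230 for the first difference and -1.86 ± 0.871 and -1.85 ± 0.412 for the second (log2 units, WT then Rarres2-/-, SD, n = 3 each). Neither difference between sets separated the genotypes.

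**Figure D4:**
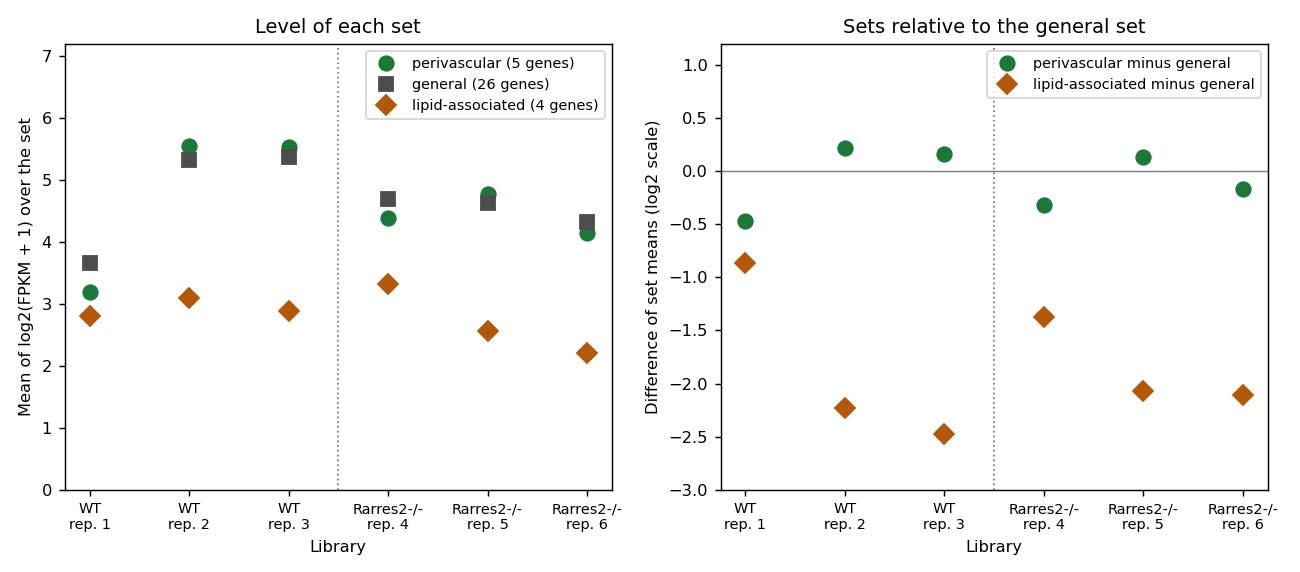
Left, mean log2(FPKM + 1) over the members of each set in each library; right, the perivascular and lipid-associated means minus the general mean (log2 units). The perivascular and general points are lowest at WT replicate 1 (3.20 and 3.67) and highest at WT replicates 2 and 3, the lipid-associated points run from 2.21 to 3.32, and both differences overlap between genotypes.

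Since most members varied with the library, each was also set against macrophage transcripts of its own library, 2 comparisons that were added after the data had been seen. In every Rarres2-/- library, Csf1r and the general mean lay inside their WT range. A gene that does not vary with them can therefore hardly separate in these comparisons. The shares over all tested genes given for both are thus no like baseline for the members. As a ratio to Csf1r, 1 of 34 members had Rarres2-/- libraries all below the WT libraries (0.361% of all tested genes did) and none had them all above (0.298%). That member was Cd209f, at 0.955, 1.31 and 1.50 in WT and 0.831, 0.705 and 0.788 in Rarres2-/-. Its cluster neighbour Cd209d overlapped, at 0.473, 0.842 and 0.740 in WT and 0.376, 0.593 and 0.531 in Rarres2-/-. Mrc1 per Csf1r overlapped between the genotypes, at 0.807, 0.729 and 0.760 in WT and 0.667, 0.764 and 0.662 in Rarres2-/-. Adgre1 was higher in Rarres2-/- replicate 4 than elsewhere, at 0.264, 0.285 and 0.283 in WT and 0.355, 0.252 and 0.261 in Rarres2-/-.

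Relative to the mean log2 level of the other general members, 0 of 35 members separated with Rarres2-/- lower (0.226% of all tested genes) and 1 with it higher (0.821%). This was Mgl2, at 0.05, 0.12 and 0.32 in WT and 0.42, 0.57 and 0.54 in Rarres2-/-. Lyve1 lay below the general members in WT replicate 1 and above them elsewhere, at -0.47, 0.65 and 0.81 in WT and 0.23, 0.93 and 0.29 in Rarres2-/-. Fcgr3 kept within 0.43 to 0.54 above the general members in every library, at 0.52, 0.54 and 0.44 in WT and 0.43, 0.53 and 0.52 in Rarres2-/-. Cd209f separated only as a ratio to Csf1r and Mgl2 only against the general members, and Mgl2 may share reads with Clec10a.

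Other genes of macrophages and of their signals were read from lists beside the members. Of 25 other tested macrophage genes, 0 passed the threshold in either direction (limma, 0 at an unadjusted p under 0.05), 19 had a lower and 6 a higher mean in Rarres2-/-, and the median was -0.10. In 16 of the 25, WT replicates 2 and 3 lay above the other 4 libraries. Apoe, a lipid carrier that adipocytes also express, was the 1 of the 25 with separate groups, beside 4.53% of all tested genes with Rarres2-/- lower. It was at 5918, 4908 and 4441 FPKM in the WT and 3490.1, 3194 and 3772 FPKM in the Rarres2-/- libraries (log2 difference -0.54, SE 0.250, limma unadjusted p = 0.0686). Mpeg1, a pore-forming protein of phagocytes, was at 4.63, 7.63 and 10.7 FPKM in the WT and 18.0, 9.24 and 6.55 FPKM in the Rarres2-/- libraries, and Cd33, an inhibitory sialic acid receptor, at 0.511, 2.37 and 2.42 FPKM in the WT and 1.38, 1.13 and 0.384 FPKM in the Rarres2-/- libraries; both overlapped. Of 8 growth factor and receptor genes, 0 passed (0 at an unadjusted p under 0.05), with 7 lower and a median of -0.04. Csf1, the ligand of Csf1r, was at 11.2, 24.0 and 25.8 FPKM in the WT and 16.2, 15.5 and 10.2 FPKM in the Rarres2-/- libraries (log2 difference -0.45, SE 0.338). Its highest libraries were again WT replicates 2 and 3, but its lowest was Rarres2-/- replicate 6.

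Among 15 regulators and targets of alternative activation, 0 passed the threshold, with 10 lower, 5 higher and a median of -0.23. One gene, 1 of the 15, had an unadjusted limma p under 0.05 and a lower level (1.73% of all tested genes). Groups were separate in 1 gene with Rarres2-/- lower and in 2 with it higher (4.53% and 5.81% of all tested genes). Socs1, a feedback inhibitor of cytokine signalling, was at 4.51, 3.86 and 3.15 FPKM in the WT and 2.23, 1.48 and 1.95 FPKM in the Rarres2-/- libraries, with all 3 Rarres2-/- libraries below the WT libraries (log2 difference -0.74, SE 0.178, limma unadjusted p = 0.00433, adjusted p = 0.990). Irf4, a transcription factor that macrophages need for this state and that adipocytes also express, was at 2.33, 6.70 and 6.63 FPKM in the WT and 15.5, 8.95 and 7.12 FPKM in the Rarres2-/- libraries, higher in each Rarres2-/- library but not past the threshold (log2 difference 0.92, SE 0.402, limma unadjusted p = 0.0561). Neither gene had the library order of the members. Among 16 genes of TREM2 signalling and lipid handling, 0 passed, with 5 lower, 11 higher and a median of 0.10. An unadjusted limma p under 0.05 was seen in 2, both higher (2.2% of all tested genes). The lipid droplet gene Plin2 was at 198, 235 and 177 FPKM in the WT and 288, 258 and 308 FPKM in the Rarres2-/- libraries, and the fatty acid transporter gene Cd36 at 663, 832 and 785 FPKM in the WT and 963, 1262 and 1052 FPKM in the Rarres2-/- libraries. In both, all Rarres2-/- libraries lay above the WT libraries (5.81% of all tested genes) without passing the threshold. Their log2 differences were 0.49 (SE 0.188) and 0.52 (SE 0.216). Both genes are abundant in adipocytes.

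Markers of other cell types moved with the macrophage members in part. The 8 progenitor and fibroblast markers, none with a mean below 1 FPKM, summed to 936, 4524 and 3286 FPKM in the WT and 2070.0, 1810.0 and 1786 FPKM in the Rarres2-/- libraries, and all 8 had the order of the members, WT replicates 2 and 3 on top and WT replicate 1 lowest. Their median log2 difference was -0.25 with all libraries and -1.13 without WT replicate 1, beside -0.25 and -0.83 for the macrophage members. Mast cell markers, 3 of 8 with a mean below 1 FPKM, summed to 8.15, 153 and 128 FPKM in the WT and 73.0, 90.6 and 101 FPKM in the Rarres2-/- libraries, and 4 of the 5 tested had the same order. Blood endothelial markers, 8 of 8 above the minimum, summed to 316, 52.4 and 54.2 FPKM in the WT and 205, 50.0 and 59.3 FPKM in the Rarres2-/- libraries, and skeletal muscle markers to 1567, 195 and 288 FPKM in the WT and 457, 522 and 312 FPKM in the Rarres2-/- libraries. These were highest in WT replicate 1, where the macrophage members were lowest. The part of tissue makeup in the macrophage values was not tested.

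Markers of other leukocytes differed in level and order. Neutrophil markers summed to 4.65 to 10.5 FPKM, with 4 of 8 below 1 FPKM in the mean, and dendritic cell markers to 20.1, 24.6 and 28.9 FPKM in the WT and 19.9, 14.3 and 12.3 FPKM in the Rarres2-/- libraries. All 4 tested dendritic cell markers had a lower mean in Rarres2-/- (51.4% of all tested genes did), and the other 4 of 8 had a mean below 1 FPKM. With all 6 libraries, 2 of the tested ones, the transcription factor genes Batf3 and Irf8, had separate groups (4.53% of all tested genes, Rarres2-/- lower). Both also had an unadjusted limma p under 0.05 (1.73% of all tested genes, Rarres2-/- lower). No macrophage member had either. Batf3 and Irf8 were picked after their values were seen. Batf3 was at 4.38, 3.96 and 5.09 FPKM in the WT and 3.55, 2.59 and 2.45 FPKM in the Rarres2-/- libraries (log2 difference -0.51, SE 0.167), and Irf8, which macrophages also express, at 7.20, 6.94 and 7.99 FPKM in the WT and 6.50, 4.67 and 4.51 FPKM in the Rarres2-/- libraries (log2 difference -0.44, SE 0.163); neither passed the adjusted threshold (limma adjusted p = 0.999 for each). B cell markers summed to 1.75, 1.22 and 24.4 FPKM in the WT and 1.33, 1.14 and 14.8 FPKM in the Rarres2-/- libraries, high in WT replicate 3 and Rarres2-/- replicate 6, which differs from the order of the macrophage members. T cell markers summed to 10.6, 4.47 and 29.9 FPKM in the WT and 12.2, 10.5 and 12.1 FPKM in the Rarres2-/- libraries. Most of the monocyte sum came from Hp, a haptoglobin gene of adipocytes and liver that was at 1132 to 2078 FPKM. None of these lists had a marker at 0 in all libraries.

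Of the 7 tested monocyte markers, 3 had the library order of the macrophage members. F13a1, the coagulation factor XIII gene that resident macrophages also express, was at 20.5, 118 and 123 FPKM in the WT and 42.1, 62.9 and 36.4 FPKM in the Rarres2-/- libraries. Plac8 was at 14.6, 148 and 112 FPKM in the WT and 34.8, 87.1 and 61.5 FPKM in the Rarres2-/- libraries, and Ccr2, the chemokine receptor of monocytes, at 5.11, 12.4 and 16.1 FPKM in the WT and 11.3, 9.10 and 7.34 FPKM in the Rarres2-/- libraries. Without WT replicate 1 their log2 differences were -1.38 (SE 0.258), -1.16 (SE 0.391) and -0.58 (SE 0.210), with limma adjusted p-values of 0.218, 0.445 and 0.482. Ly6c2, the surface marker of classical monocytes, was at 5.08, 3.17 and 5.29 FPKM in the WT and 5.56, 3.26 and 5.33 FPKM in the Rarres2-/- libraries and did not have that order. The part of monocytes in the macrophage values was not tested.

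Markers of adipocytes, the main cell type of the depot, mostly had a higher mean in Rarres2-/-, but not in each library. Their mean log2(FPKM + 1) was 10.78, 10.82 and 10.69 in the WT and 10.57, 11.1 and 11.19 in the Rarres2-/- libraries. Rarres2-/- replicate 4 thus had the lowest mean, and it was the lowest library for 4 of the 8 markers. Of 8 tested, 7 had a higher mean in Rarres2-/- (median log2 difference 0.21), as did 5383 of all 11086 tested genes. In 3 the groups were separate with Rarres2-/- higher (5.81% of all tested genes), 0 passed the threshold, and none had the library order. Without WT replicate 1, 8 of 8 were higher (median 0.20), beside 5600 of all 11086 tested genes. Without Rarres2-/- replicate 4 as well, 8 of 8 were higher (median 0.39), beside 5987 of the 11086. In that last fit 7 had separate groups, as did 3510 of the 11086 with Rarres2-/- higher. Brown and beige adipocyte markers were higher in 5 of 8 (median 0.25), in 7 of 8 without WT replicate 1 and in 8 of 8 without both libraries, and 0 passed the threshold with all libraries. Their part in the macrophage values was not tested.

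**Figure D5:**
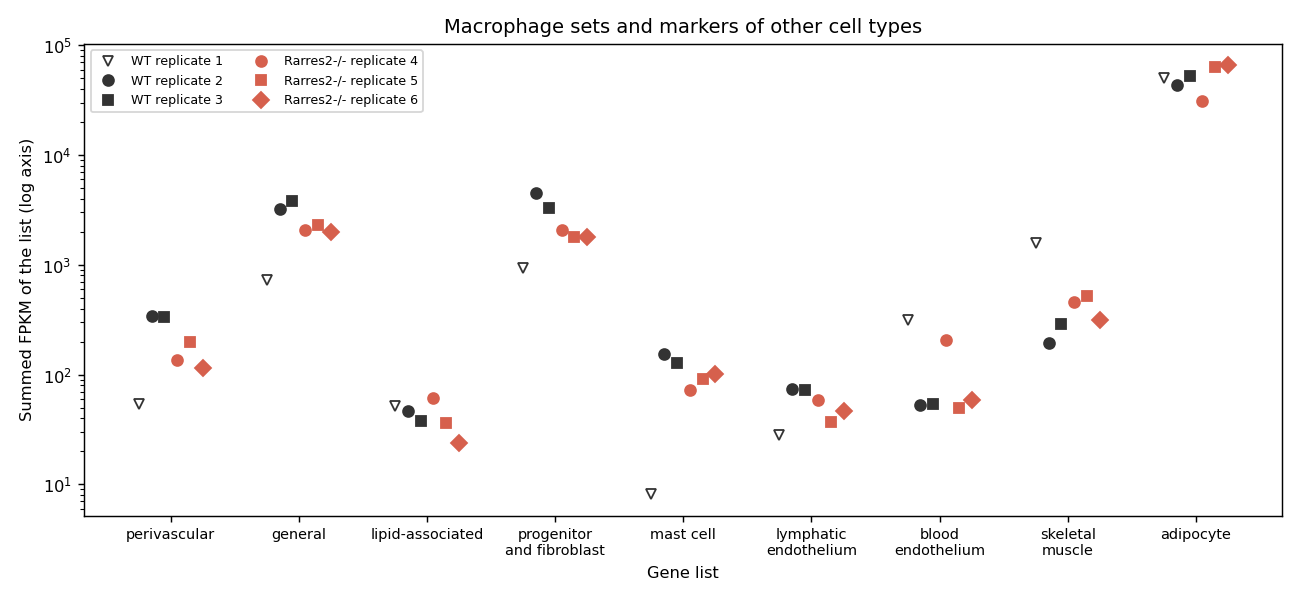
Summed FPKM (log axis) of the 3 macrophage sets and of marker lists of 6 other cell types, 1 symbol per library (WT in black, Rarres2-/- in red). Progenitor, mast cell and lymphatic sums are lowest at WT replicate 1 (open triangle), like the perivascular and general macrophage sums, whereas blood endothelial and muscle sums are highest there. Much of the lymphatic sum comes from Thy1 (17.96 to 44.42 FPKM).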

How the data were processed

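Total RNA of cold-stimulated inguinal fat was sequenced on Illumina instruments, per the labels, and the authors deposited 1 table of FPKM per library, per the file headers. The header of WT replicate 3 gives the sample's name in place of a unit, and its values have the scale of the others. Bowtie and the mm10 genome are named in the submitters' processing notes. The sources used here do not give the FPKM program, its annotation, strand setting or treatment of reads shared by gene copies. Absolute depth is unknown, so no counting intervals are given; relative depth was estimated from the spacing of values below 0.15 FPKM. FPKM divides by each library's total, so a few abundant genes can shift all others.

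The 737 rows without a symbol (0.793% to 4.91% of the summed values) were left out. The 11086 of 17342 genes that averaged at least 1 FPKM were tested as log2(FPKM + 1) with limma 3.58.1 in R 4.3.3 (eBayes with trend, two-sided, Benjamini-Hochberg adjustment, threshold 0.05), genotype being the only term. Exact permutation of 3 against 3 libraries cannot go below p = 0.1 and was not used. Scripts were tested on simulated data. The members and lists were chosen with earlier results of these data known, so no p is given over a list, and patterns seen before are no independent support. Genes named are every member, Rarres2, up to 3 tested genes with the smallest p from each list of related genes or cell type markers (some are not reported here), and the most abundant gene of a cell type's list. Prox1, Pdpn and Ccl21a, shown beside Lyve1, and Plac8, F13a1, Ccr2, Ly6c2, Batf3 and Irf8 were chosen after their values were seen. Alternatives were another pseudocount (0.1), no minimum, a minimum of 5 FPKM in 3 libraries, 3 scalings, array weights, eBayes without trend, each library left out, and WT replicate 1 with Rarres2-/- replicate 4 left out. The ratios to Csf1r and to the general members were added after the data were seen. Promoters and coordinates are RefSeq's, and transcripts GENCODE M21's, aligned with Biopython 1.88.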

Additional observations from a re-analysis of the deposited data

How the results depend on the processing

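No paired analysis was possible because the replicate numbers 1 to 3 of WT and 4 to 6 of Rarres2-/- are not shared. With all 6 libraries kept, other pseudocounts, filters, scalings, eBayes without trend and array weights gave 275 member values, of which 5 changed direction and 14, all with array weights, passed the threshold; the cause was not tested. Msr1, near 0 throughout, was at 0.066 with a pseudocount of 0.1, 0.011 with quantile normalization and 0.0021 with scaling to the total without the top 20 genes. Retnla and Mgl2 were at -0.27 and -0.33 with array weights, and at -0.44 and -0.55 without WT replicate 1 and Rarres2-/- replicate 4. Genes past the threshold numbered 0 in the reported fit, 1 with the 5 FPKM filter, 1 with upper-quartile scaling, 1 with scaling without the top 20 genes, 1524 with array weights and 68 without the 2 libraries; members past it numbered 14 and 5 in the last 2 of these.

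Leaving out 1 library in turn gave 0 to 1 genes and no member past the threshold, 17 to 33 members lower, and medians from -0.83 to 0.0056 over all members, -0.81 to 0.013 over general and -1.05 to 0.10 over perivascular members. Single log2 differences that changed direction (21 members) ran from -0.82 to 0.27 for Adgre1, -0.59 to 0.0096 for Cd14, -0.91 to 0.25 for Cd53, -0.69 to 0.30 for Cd68, -0.46 to 0.16 for Cd9, -0.87 to 0.26 for Csf1r, -0.99 to 0.026 for Fcgr2b, -0.80 to 0.044 for Fcgr3, -1.36 to 0.10 for Folr2, -0.52 to 0.35 for Gpnmb and -0.93 to 0.25 for Itgam. They ran from -0.63 to 0.16 for Laptm5, -1.05 to 0.44 for Lyve1, -0.93 to 0.26 for Lyz2, -0.52 to 0.47 for Mgl2, -0.96 to 0.10 for Mrc1, -0.51 to 0.28 for Msr1, -0.83 to 0.13 for Pf4, -0.54 to 0.94 for Retnla, -0.55 to 0.0056 for Spi1 and -0.55 to 0.038 for Spp1. Leaving out WT replicate 3 changed the direction of 16 members, WT replicate 2 of 14, Rarres2-/- replicate 6 of 9, WT replicate 1 of 4 and Rarres2-/- replicate 5 of 1. Depth in counts is unknown, so what it limits for the low members was not tested.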
